A study of Mus musculus with 9 samples.

Results

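The enzymes that hydroxylate and crosslink collagen were followed in first-molar enamel organs of male mice at postnatal day 12. The group comprised 10 genes chosen by name, from 54532 genes in the table: the lysyl oxidases Lox, Loxl1, Loxl2, Loxl3 and Loxl4, the lysyl hydroxylases Plod1, Plod2 and Plod3, and the prolyl 4-hydroxylase catalytic alpha subunits P4ha1 and P4ha2. Sums and shares of prolyl subunits below cover P4ha1 and P4ha2 only. The rule names the genes by function and uses no value of the table, but it was written with earlier results of these data known. All 10 were among the 15909 genes that passed the filter on low counts. The early life adversity (ELA) group was 5 male pups raised with limited bedding and nesting from postnatal day 2 to postnatal day 12, a rearing condition in which scarce nest material fragments the care given by the dam. The control group was 4 male pups of the same age raised without that restriction. The study's methods give a lower mean body weight for the sequenced ELA pups than for the controls. Its lightest ELA mice were excluded from the analyses that followed the imaging of enamel. Pups of both groups were on a C57BL/6 background and carried Crh-IRES-Cre and Ai14 tdTomato, a reporter that marks cells in which the Crh gene is or was active, so the comparison had no group free of these alleles. RNA was captured by poly(A) and each mouse gave 1 library. The rearing was applied to whole litters. Titles carry 2 numbers per group, and the study's methods name 2 litters per group for mice of the same sex, age and number used for qPCR, but do not state the litters of the sequenced mice. If mice with the same title number were littermates, p-values over single mice are too small.

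Collagen chains are modified in the endoplasmic reticulum before they are secreted. Prolyl 4-hydroxylase makes hydroxyproline, which stabilizes the triple helix, and lysyl hydroxylases make hydroxylysine, which carries sugars and takes part in the most stable crosslinks. Both enzyme families need iron, oxoglutarate and ascorbate. Outside the cell, the copper enzymes of the lysyl oxidase family oxidize lysine and hydroxylysine side chains of collagen and elastin, and the aldehydes formed react into covalent crosslinks. Around a developing molar these enzymes are known mainly from the mesenchyme of the dental follicle, pulp and bone, whereas the enamel organ itself is an epithelium and its matrix holds little collagen.

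P4ha1 and P4ha2 are known targets of the hypoxia-inducible factors, which bind the core letters ACGTG or GCGTG, so the 250 bases before the start of both genes are shown with these letters in capitals. The RefSeq promoter table for GRCm38.p6 held 5 of the 10 genes (Plod1, Plod3, P4ha1, P4ha2 and Loxl4). Both windows are on the plus strand, and neither overlaps a GENCODE M21 exon. That of P4ha1 lies directly upstream of the gene, and that of P4ha2 lies within the gene as GENCODE draws it, in an intron of a transcript that begins further upstream.
P4ha1, chr10:59323046-59323295: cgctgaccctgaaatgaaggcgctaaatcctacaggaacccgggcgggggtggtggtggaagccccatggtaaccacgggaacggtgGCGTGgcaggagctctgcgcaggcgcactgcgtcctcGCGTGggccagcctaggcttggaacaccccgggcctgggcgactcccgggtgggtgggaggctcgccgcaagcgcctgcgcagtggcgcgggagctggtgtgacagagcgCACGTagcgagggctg
P4ha2, chr11:54100674-54100923: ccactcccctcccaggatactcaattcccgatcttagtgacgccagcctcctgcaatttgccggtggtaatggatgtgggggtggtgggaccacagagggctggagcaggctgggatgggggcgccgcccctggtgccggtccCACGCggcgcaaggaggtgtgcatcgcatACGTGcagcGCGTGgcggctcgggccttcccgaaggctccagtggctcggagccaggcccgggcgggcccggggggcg

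Each of the windows held 3 matches when both strands were read, 1 of ACGTG and 2 of GCGTG, and the match written CACGT or CACGC is on the minus strand. In P4ha1 the matches began 163, 126 and 16 bases before the start, and in P4ha2 they began 107, 78 and 69 bases before it. At least 1 match was found in 38.6% of the 32851 windows of this length in the table, and 3 or more in 6.58%. All 5 of the enzymes with a window had at least 1 match, including Plod3 with 4, Plod1 with 1 and Loxl4 with 1. A match is a description of the letters and not a site of binding.

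The libraries held 18056774 to 32110160 counts in ELA and 18683431 to 20831736 in control. Values per mouse are CPM, the counts scaled by TMM library size, and are given in the order t-205-1-1, t-205-1-3, t-203-1-3, t-203-1-4 and t-203-1-5 for ELA and c-204-1-1, c-204-1-2, c-202-1-1 and c-202-1-2 for control. An ELA library, t-203-1-4, differed from the rest, with 228 genes at 10 times or more the CPM of any other library and a summed neuron marker level of 610 CPM, against 58.7 to 105 CPM in the other ELA mice and 54.0 to 81.7 CPM in the controls. The deepest library was that of t-203-1-5. Genes that define enamel-forming cells were present in all 9 mice, at a summed 106550 to 169780 CPM in ELA and 80413 to 106360 CPM in control, and so were mesenchymal markers, at 12228 to 23707 CPM in ELA and 16063 to 31465 CPM in control. In such bulk tissue, fewer cells of a type and less RNA per cell cannot be told apart.

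None of the 10 enzymes passed the test in either direction at an adjusted p below 0.05 (edgeR, Benjamini-Hochberg over all genes tested), where 10 of 15909 genes or 0.0629% did, and none passed with DESeq2 or limma-voom. At an unadjusted p below 0.05 there were 3 enzymes lower in ELA, Lox, Loxl1 and Loxl2, by edgeR and likewise by DESeq2 and limma-voom, against 2.89% of all genes in that direction. There were 0 enzymes higher in ELA at that level, against 3.56% of all genes. The log2 fold change was negative for 8 of the 10, against 47.4% of all genes, and its median was -0.30 over the 10 enzymes and 0.01 over all genes. Every lysyl oxidase and every lysyl hydroxylase had a negative value, and P4ha1 and P4ha2 had a positive one. For every enzyme, at least 1 ELA mouse lay within the range of the controls, while 2.68% of all genes had groups that did not overlap. Leaving out single mice moved the count of 3: it was 1 without t-203-1-3, 1 without t-203-1-4, 7 without t-203-1-5, 1 without c-204-1-1, 1 without c-204-1-2 and 0 without c-202-1-2. With counts summed by title number it was 2, Lox and Loxl1, and Loxl2 had an unadjusted p of 0.0741. The 7 without t-203-1-5 were the 5 lysyl oxidases with Plod1 and Plod2, and the smallest adjusted p among them was 0.295.

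**Figure D1:**
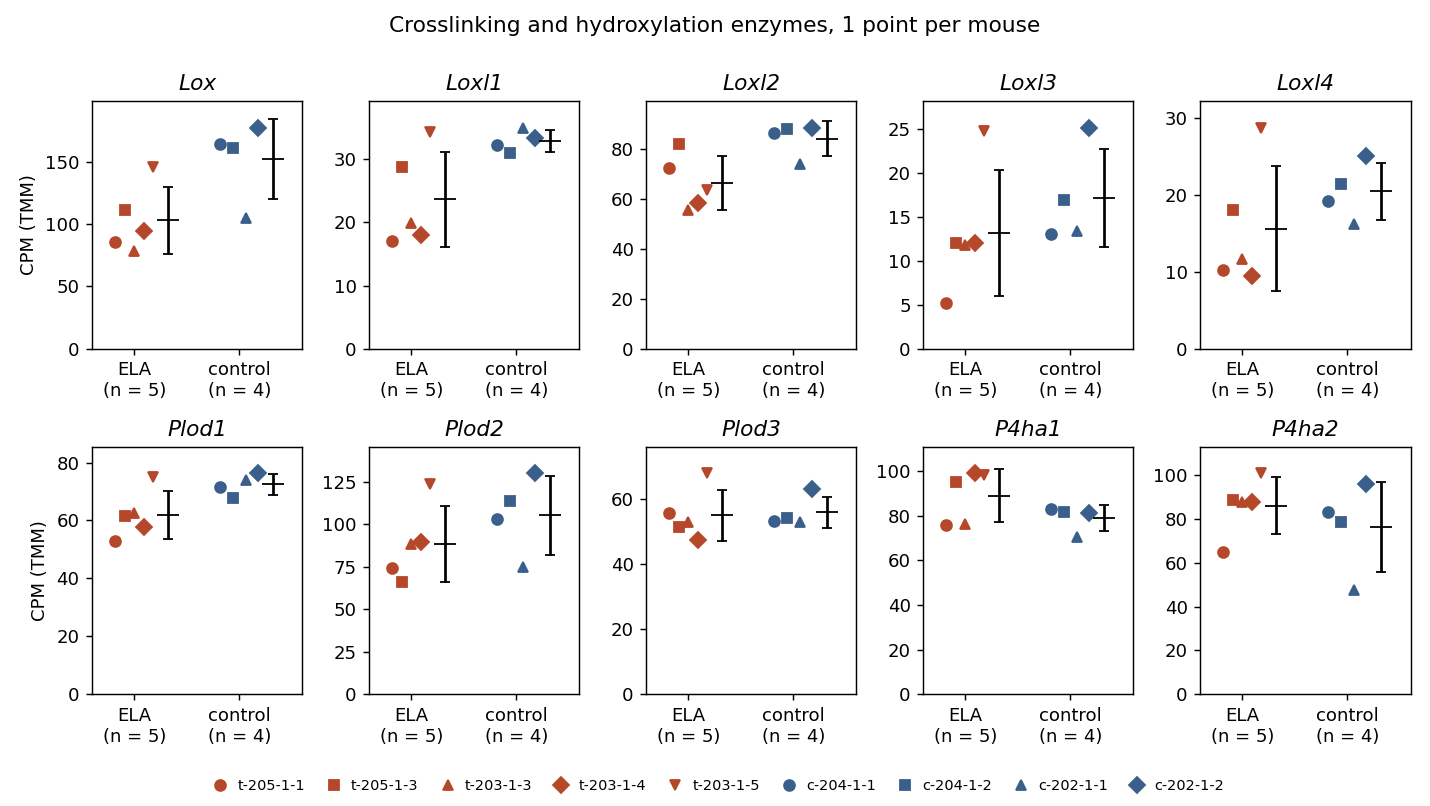
CPM of the 10 enzymes with 1 point per mouse, ELA left and control right in each panel, and the mean with its SD in black. The ELA mouse t-203-1-5 (downward triangle) had the highest ELA value of 8 of the 10 enzymes, and the control mouse c-202-1-1 (blue triangle) had the lowest control value of 7.

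Lox, the founding lysyl oxidase, which acts on both collagen and elastin, lies on chromosome 18 and was the most abundant of the 10 per length. It had 85.3, 111, 78.4, 94.7 and 146 CPM in ELA mice, against 164, 161, 105 and 177 CPM in control mice. The 3 lowest mice were ELA and the 3 highest were control, and the groups overlapped through t-203-1-5, t-205-1-3 and c-202-1-1. Lox averaged 103 ± 26.9 CPM in ELA (SD, n = 5) and 152 ± 32.1 CPM in control (SD, n = 4). Its log2 fold change of -0.56 ± 0.20 (SE) had a 95% interval of -1.004 to -0.112 and an edgeR adjusted p of 0.628 (unadjusted p = 0.0185).

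Loxl1, best known for the assembly of elastic fibres (chr9:58287738-58313186, minus strand, GRCm38), had 17.1, 28.8, 19.98, 18.1 and 34.3 CPM in ELA and 32.3, 31.0, 35.0 and 33.3 CPM in control. All 4 controls lay within a narrow band, and t-203-1-5 was the single ELA mouse inside it. The means were 23.7 ± 7.56 CPM in ELA and 32.9 ± 1.69 CPM in control (SD, n = 5 and 4). The log2 fold change was -0.47 ± 0.20 (edgeR adjusted p = 0.714, unadjusted p = 0.0374), with a 95% interval of -0.92 to -0.03.

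For Loxl2, which crosslinks collagen type IV of basement membranes among other substrates (chr14:69609068-69695834, plus strand), ELA mice gave 72.5, 82.0, 55.6, 58.3 and 63.7 CPM, against 86.4, 87.9, 74.0 and 88.6 CPM in controls. Here t-203-1-5 was among the 4 ELA mice below every control, and the overlap came from t-205-1-3 and c-202-1-1. Loxl2 averaged 66.4 ± 10.8 CPM in ELA and 84.2 ± 6.87 CPM in control (SD, n = 5 and 4). Its log2 fold change was -0.34 ± 0.13, with a 95% interval of -0.64 to -0.05 (edgeR adjusted p = 0.666, unadjusted p = 0.0259). It was -0.13 without the mice titled t-203 and -0.50 without those titled t-205.

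Loxl3 (chr6:83034173-83052562, plus strand) and Loxl4 (chr19:42593982-42612813, minus strand) were the least abundant of the 10 and the most variable among mice. Loxl3 had 5.20, 12.1, 11.9, 12.0 and 24.8 CPM in ELA, against 13.1, 16.9, 13.5 and 25.2 CPM in control, a 4.84-fold span over the 9 mice. Loxl4 had 10.3, 18.1, 11.7, 9.42 and 28.8 CPM in ELA, against 19.2, 21.4, 16.3 and 25.1 CPM in control. For both, t-203-1-5 lay at or near the top of all mice while the other 4 ELA mice lay mostly below the controls. The edgeR intervals were wide, at -1.18 to 0.43 for Loxl3 (log2 fold change -0.37 ± 0.37, adjusted p = 0.985) and -1.06 to 0.29 for Loxl4 (log2 fold change -0.39 ± 0.31, adjusted p = 0.962). Without t-203-1-5 the log2 fold change was -0.74 for Loxl3 and -0.73 for Loxl4. For Loxl3 it was -0.13 without c-202-1-2 and -0.17 without t-205-1-1, and for Loxl4 it was -0.25 without t-203-1-4. The last bases of Loxl3 overlap Htra2 on the other strand, which had 10.2 CPM in ELA and 10.1 CPM in control, and since the strand setting of the counting is not given, reads of the shared stretch cannot be told apart.

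Among the lysyl hydroxylases, Plod1, the enzyme of helical lysines (chr4:147909753-147936767, minus strand), had 53.0, 61.5, 62.6, 57.8 and 75.1 CPM in ELA mice and 71.6, 67.8, 74.1 and 76.3 CPM in control mice. Apart from t-203-1-5, the ELA mice lay below every control. Plod1 averaged 62.0 ± 8.23 CPM in ELA and 72.5 ± 3.67 CPM in control (SD, n = 5 and 4), with a log2 fold change of -0.22 ± 0.12 and an interval of -0.49 to 0.04 (edgeR adjusted p = 0.843). Plod2, the enzyme of telopeptide lysines (chr9:92542223-92608428, plus strand), had 74.3, 66.1, 88.3, 89.7 and 124 CPM in ELA and 103, 114, 74.9 and 130.1 CPM in control. The groups overlapped over most of that range. Its log2 fold change was -0.25 ± 0.20, with an interval of -0.69 to 0.18 (edgeR adjusted p = 0.957). Single mice moved it, to -0.40 without t-203-1-5, -0.39 without c-202-1-1, -0.16 without t-205-1-3 and -0.14 without c-202-1-2.

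Plod3, which also adds sugars to hydroxylysine (chr5:136987019-136996648, plus strand), had 55.7, 51.3, 52.8, 47.3 and 67.9 CPM in ELA and 53.2, 54.0, 52.9 and 63.1 CPM in control. It was the most even of the 10 between the groups, with 55.0 ± 7.82 CPM in ELA and 55.8 ± 4.88 CPM in control (SD, n = 5 and 4). Its log2 fold change was -0.02 ± 0.13 (edgeR adjusted p = 0.999), and the interval of -0.30 to 0.26 bounds a difference in either direction. The value was positive in some alternatives, at most 0.04 when c-202-1-2 was left out. Plod3 overlaps Znhit1 on the other strand (43.8 CPM in ELA, 39.1 CPM in control), with the same limit as Loxl3.

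P4ha1, the widely expressed catalytic subunit of prolyl 4-hydroxylase (chr10:59323296-59373304, plus strand), had 75.8, 94.8, 76.1, 99.0 and 98.3 CPM in ELA, against 83.1, 81.4, 70.2 and 81.0 CPM in control. There were 3 ELA mice above every control and 2 within the control range. The mean was 88.8 ± 11.8 CPM in ELA and 78.9 ± 5.88 CPM in control (SD, n = 5 and 4), a log2 fold change of 0.17 ± 0.13 with an interval of -0.11 to 0.44 (edgeR adjusted p = 0.944). P4ha2, the second catalytic subunit, known from cartilage and other connective tissues (chr11:54100095-54131665, plus strand), had 65.0, 88.8, 87.9, 87.7 and 101 CPM in ELA and 83.4, 78.6, 47.7 and 95.8 CPM in control. The lowest of all mice was c-202-1-1 and the highest was t-203-1-5. Its log2 fold change of 0.17 ± 0.19 had an interval of -0.25 to 0.59 (edgeR adjusted p = 0.999). The value rested on single mice: it was 0.0018 without c-202-1-1, 0.11 without t-203-1-5, 0.26 without t-205-1-1 and 0.30 without c-202-1-2, and it was 0.0065 without the 3 mice titled t-203.

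**Figure D2:**
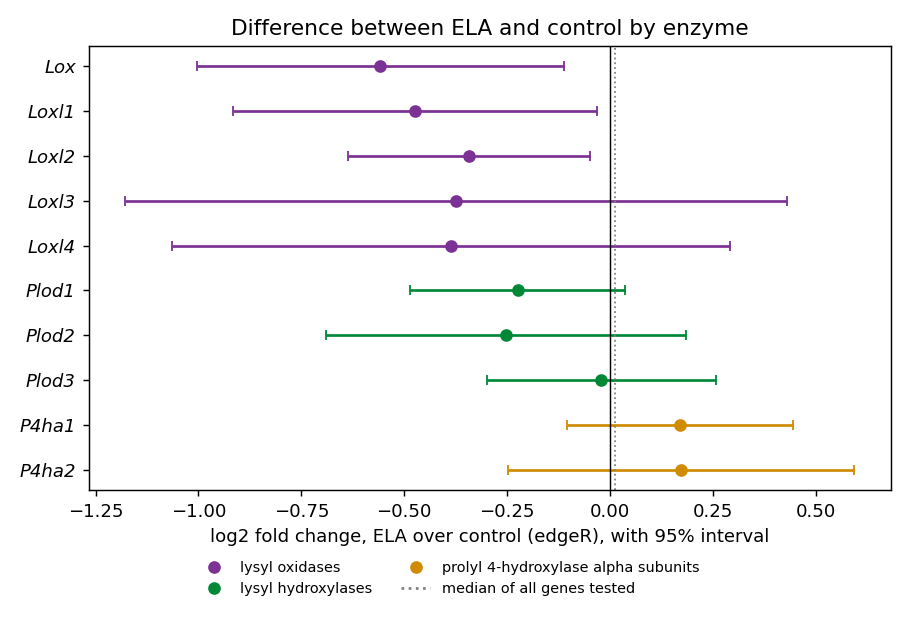
Log2 fold change of ELA over control for each enzyme (points) with its 95% interval (bars) from edgeR, coloured by family, with the median of all genes tested as a dotted line. The intervals of Lox, Loxl1 and Loxl2 lie below 0 and those of the other 7 enzymes include it, before any adjustment for the number of genes.

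Levels of different genes were compared per length, as FPKM. In the mean of all 9 mice, Lox led with 25.9 FPKM, followed by P4ha1 (20.5), Plod2 (17.8), Loxl2 (13.8), P4ha2 (13.1), Plod3 (12.2), Plod1 (9.85), Loxl1 (8.43), Loxl4 (4.23) and Loxl3 (3.25). Lox exceeded 89.0% of the genes tested by this measure and Loxl3 43.9%. The order of the groups differed at the top: in ELA, P4ha1 (21.6 ± 2.87 FPKM) stood level with Lox (21.4 ± 5.59 FPKM), whereas in control Lox (31.6 ± 6.68 FPKM) stood above P4ha1 (19.2 ± 1.43 FPKM) (SD, n = 5 and 4). Neighbours such as Loxl2, P4ha2 and Plod3 in ELA, at 12.3 ± 2.01, 13.8 ± 2.09 and 12.2 ± 1.73 FPKM, did not differ beyond their spread.

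Summed over the 5 lysyl oxidases, ELA mice had 39.9, 53.9, 38.0, 40.8 and 64.8 FPKM, against 67.3, 67.9, 52.9 and 74.8 FPKM in control mice. For lysyl oxidases and likewise for lysyl hydroxylases, 3 ELA mice lay below every control, while for P4ha1 and P4ha2 summed 3 lay above. Summed lysyl hydroxylases were 37.7 ± 6.59 FPKM in ELA and 42.6 ± 5.29 FPKM in control, and P4ha1 and P4ha2 summed were 35.4 ± 4.57 FPKM in ELA and 31.4 ± 4.61 FPKM in control (SD, n = 5 and 4). The make-up of each family was compared as the share of each enzyme. Lox made up 45.04 ± 2.42% of summed lysyl oxidase FPKM in ELA and 47.6 ± 4.34% in control, Plod2 made up 43.1 ± 4.04% of the lysyl hydroxylases in ELA and 45.5 ± 5.17% in control, and P4ha1 made up 61.0 ± 2.89% of P4ha1 and P4ha2 summed in ELA and 61.6 ± 5.41% in control. The ranges of the groups overlapped for all 10 shares. In t-205-1-1, Loxl2 was 33.6% of the family, against 18.2 to 28.1% in the other ELA mice.

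**Figure D3:**
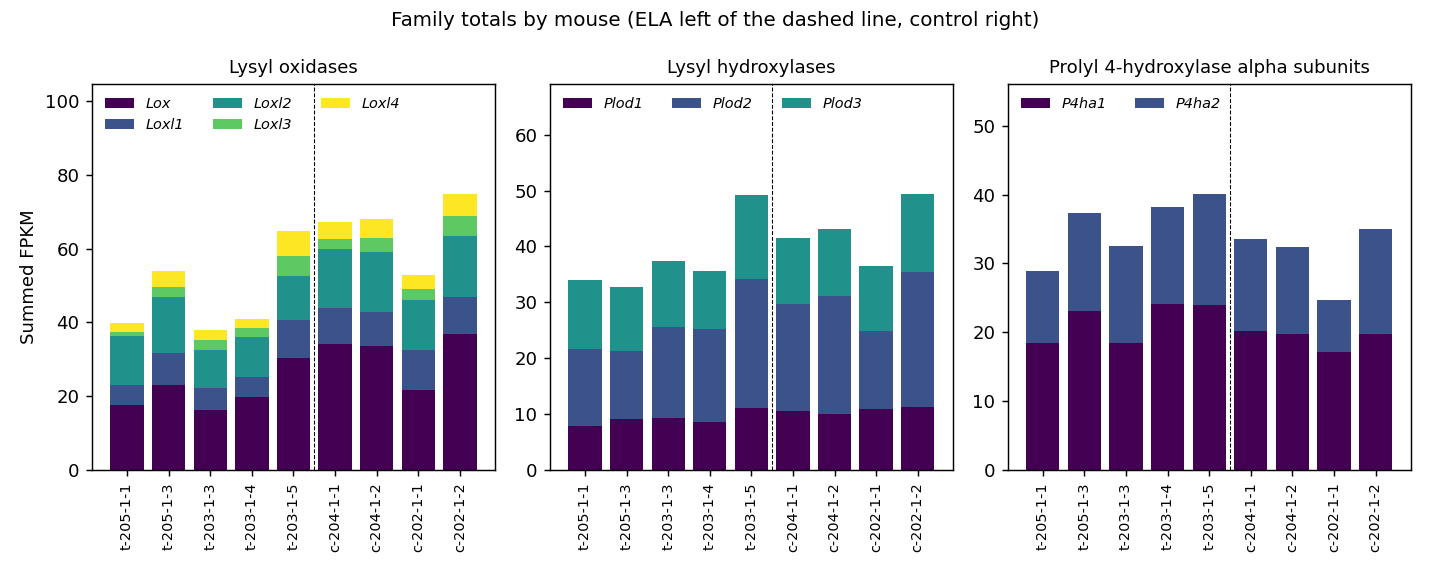
Stacked FPKM of each family by mouse, with the 5 ELA mice left of the dashed line and the 4 control mice right of it. Lysyl oxidase totals are 38.0 to 64.8 FPKM in ELA and 52.9 to 74.8 FPKM in control, and the bars of t-203-1-5 reach or exceed the control range in every family.

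Some mice were high or low for many of the enzymes at once. Mouse t-203-1-5 was below all controls for 1 of the 10 enzymes, while t-205-1-1, t-203-1-3 and t-203-1-4 were each below all controls for 7, and t-205-1-3 for 5. Among controls, c-202-1-2 was the highest for 8 enzymes and c-202-1-1 the lowest for 7, although both carry the same number in their titles. The summed level of the 16 mesenchymal markers moved with them. It was 12352, 19384, 12228, 13395 and 23707 CPM in ELA, against 28690, 25357, 16063 and 31465 CPM in control. Mouse t-203-1-5 was the highest ELA mouse and c-202-1-1 the lowest control there as well. Of that sum, Col1a1 gave 9521 CPM and Col1a2 gave 8932 CPM in t-203-1-5. Not every marker followed: Postn was highest among ELA mice in t-205-1-1 (1068 CPM) and lowest among controls in c-202-1-2 (1124 CPM). Odontoblast markers in sum were also highest among ELA mice in t-203-1-5, at 4154 CPM, and lowest among controls in c-202-1-1, at 1034 CPM. Dspp, a matrix gene of odontoblasts, alone had 3659 CPM in t-203-1-5 and 790 CPM in c-202-1-1. The part of these cell type markers in the enzyme values was not tested.

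Of the 16 mesenchymal markers, 15 had a negative log2 fold change, 9 were lower in ELA at an unadjusted p below 0.05, none passed the adjusted p in edgeR and 3 did in DESeq2, and the median was -0.53. Col1a1, Col1a2 and Col3a1 are among these markers. Ameloblast markers went the other way in sum, but their median log2 fold change was 0.09, with 8 positive and 4 negative values. Of the 12, 1 passed the adjusted p in edgeR, Amelx (amelogenin). It rose in ELA at 25829 ± 7117 CPM, against 8742 ± 534 CPM in control (log2 fold change 1.56 ± 0.22, edgeR adjusted p = 0.0477). The values of Enam (enamelin) were 650, 389, 4198, 4649 and 2125 CPM in ELA and 72.4, 66.2, 48.9 and 55.9 CPM in control, with an adjusted p of 0.0571 by edgeR, 0.0372 by limma-voom and 4.25e-10 by DESeq2. Osteoblast markers had a median of -0.39 with 4 of 12 lower in ELA and 1 higher (unadjusted p below 0.05), of which Ibsp passed the adjusted p in DESeq2, and all 9 macrophage and osteoclast markers had negative values, with sums of 262 to 783 CPM in ELA and 490 to 800 CPM in control. No marker on these lists was at 0 in every mouse. Blood cell markers were at 153 to 371 CPM in ELA and 374 to 870 CPM in control, and Ighm, the heavy chain of immunoglobulin M, fell to 4.97 ± 1.72 CPM in ELA, against 17.1 ± 5.39 CPM in control (edgeR adjusted p = 0.0477). DESeq2 called 5 of the 8 blood cell markers lower (Hbb-bs, Ighm, Cd79a, Cd79b and Ms4a1). Over all 18754 genes to which DESeq2 gave an adjusted p, it called 59 lower and 79 higher. With single mice left out, the edgeR adjusted p reached 0.274 for Amelx and 0.257 for Ighm, both without c-204-1-2, and stayed below 0.05 for Amelx only without t-205-1-3 and for Ighm only without t-203-1-3.

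The substrates were compared next. None of the 11 fibrillar collagen genes passed the adjusted p in edgeR, 9 had a negative log2 fold change, 3 were lower at an unadjusted p below 0.05 (Col3a1, Col5a1 and Col5a2), and the median was -0.49. Col3a1, the chain of type III collagen, had 2411, 3142, 2031, 2678 and 3129 CPM in ELA, against 6348, 5346, 3332 and 5553 CPM in control. Every ELA mouse was below every control, with a log2 fold change of -0.94 ± 0.21 (edgeR adjusted p = 0.166), and it was the single fibrillar collagen past the adjusted p in DESeq2 (0.00218). Col1a1, of type I collagen, averaged 5518 ± 2625 CPM in ELA and 8136 ± 3228 CPM in control (SD, n = 5 and 4), and the groups overlapped.

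To set the enzymes against their substrate, the mean log2 CPM of Col1a1, Col1a2 and Col3a1 was subtracted from the log2 CPM of each enzyme in each mouse. P4ha2 gave -5.61, -5.90, -5.23, -5.42 and -5.99 in ELA, against -6.60, -6.45, -6.45 and -6.55 in control. Every ELA mouse was above every control, which held for P4ha2 alone among the 10 enzymes and for 540 of 15909 genes, or 3.39%. The difference was 0.88 for P4ha2, beside a median difference of 0.68 over all genes, because the same collagen mean was subtracted from each. P4ha1 differed by 0.84, with 4 of 5 ELA mice above every control. With all 11 fibrillar collagens subtracted instead, the difference was 0.56 for P4ha2, and the groups overlapped. With that larger set, Lox, Loxl1, Loxl3 and Loxl4 had negative differences, of -0.21, -0.18, -0.14 and -0.15, and Loxl2 had the one closest to 0. Relative to the 3 collagens, Lox differed least, by 0.11, at -5.39 ± 0.14 in ELA and -5.51 ± 0.17 in control (SD, n = 5 and 4). The SD of Lox over the 9 mice was 0.44 in log2 CPM and 0.15 after subtraction, while that of P4ha1 was 0.18 in log2 CPM and 0.55 after subtraction.

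**Figure D4:**
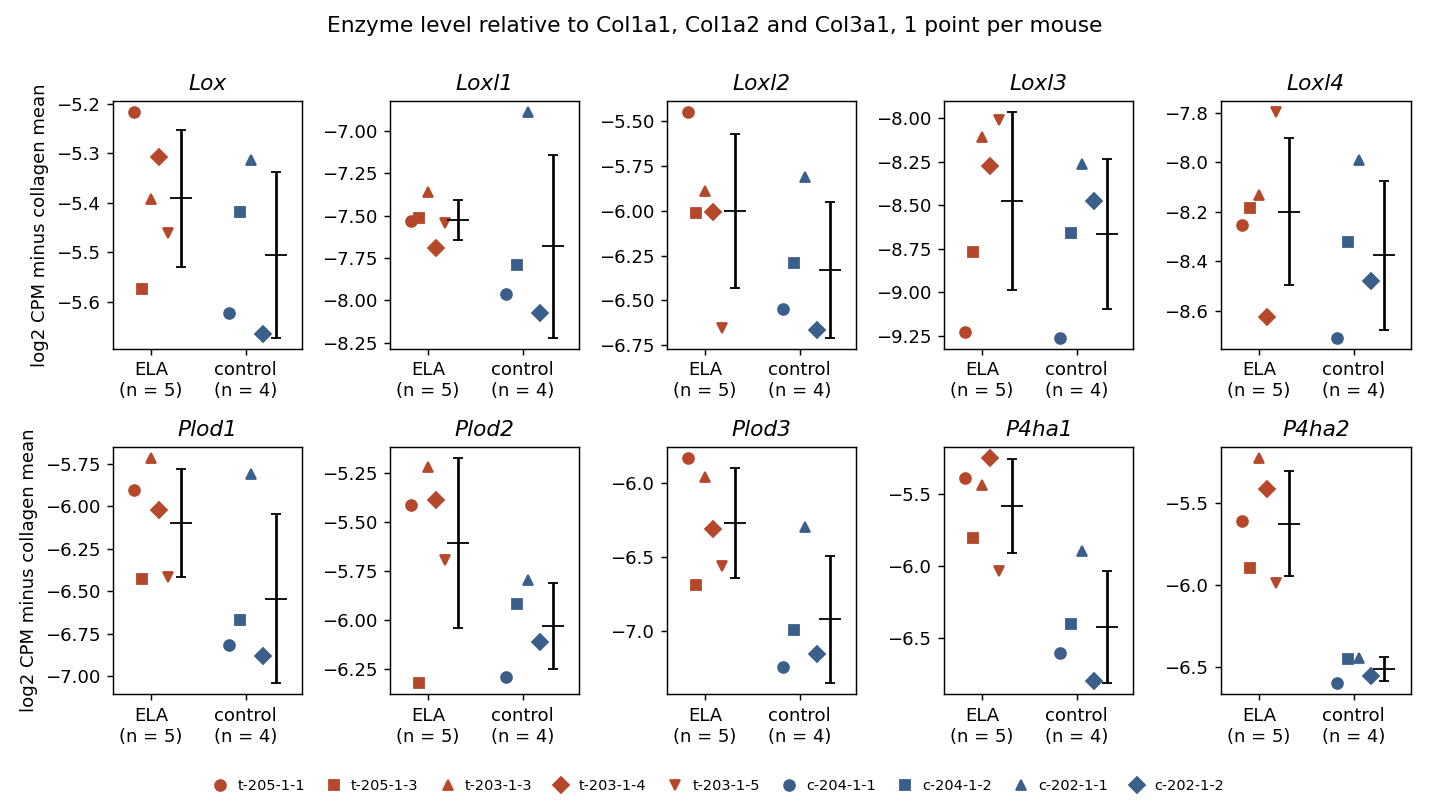
Log2 CPM of each enzyme minus the mean log2 CPM of Col1a1, Col1a2 and Col3a1, 1 point per mouse, ELA left and control right, with the mean and SD in black and a separate vertical scale in each panel. The P4ha2 panel is the only one in which the ELA points (-5.99 to -5.23) lie wholly above the control points (-6.60 to -6.45), and the Lox panel spans the narrowest range.

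The genes whose log2 CPM followed each enzyme most closely over the 9 mice were sought among the 11403 genes whose mean was 5 CPM or more. Picking the highest of that many correlations over 9 mice raises r by itself. These genes are a description only, also since all points share the same libraries. For Lox they were Col5a2 (Pearson r = 0.982), a chain of type V collagen, and Mmp2 (r = 0.977), a gelatinase of connective tissue. Loxl4 was followed by Col6a2 (r = 0.977) of type VI collagen and by Bglap2 (r = 0.948), an osteocalcin gene whose near-identical copies make its counts uncertain. Plod2 was followed by Foxf1 (r = 0.959), a mesenchymal transcription factor, and Dspp (r = 0.957), the main matrix gene of odontoblasts. The nearest genes of Loxl2 were Synj2 (r = 0.936) and Tnn (r = 0.934), tenascin W, and those of Loxl1 were Cryzl2 (r = 0.958) and Adgra2 (r = 0.945).

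Plod1 was followed by Wnt11 (r = 0.952) and Inafm1 (r = 0.944), Loxl3 by Mum1 (r = 0.981) and Cdkn2c (r = 0.977), and Plod3 by Klhl22 (r = 0.949) and Mri1 (r = 0.939). P4ha1 was followed by Mest (r = 0.939), an imprinted gene, and Kif23 (r = 0.931), a kinesin of cell division, and P4ha2 by Mettl17 (r = 0.947) and Pik3ip1 (r = 0.924). Between the enzymes themselves, Loxl1 and Plod1 were among the closest (r = 0.914), and P4ha1 was near 0 with Loxl1 (r = -0.01), Plod1 (r = -0.08) and Plod3 (r = 0.05). After the group means were removed, P4ha1 had r = 0.465 with Loxl1, 0.363 with Plod1, 0.109 with Plod3 and 0.795 with Lox, which had been 0.188 before.

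Partners that work in the same compartment were taken as a list of 14 genes, among them chaperones, prolyl 3-hydroxylases and galactosyltransferases of collagen. None passed the adjusted p, 2 were lower in ELA by the unadjusted p, and 13 of 14 had a negative log2 fold change, with a median of -0.22. Colgalt2, a galactosyltransferase that acts on hydroxylysine, had 5.06 ± 0.59 CPM in ELA and 8.23 ± 1.87 CPM in control (log2 fold change -0.70 ± 0.20, edgeR adjusted p = 0.411). Fkbp14, a prolyl isomerase of the endoplasmic reticulum, had 53.0 ± 3.36 CPM in ELA and 64.9 ± 8.53 CPM in control (edgeR adjusted p = 0.682), and P3h4, a partner of lysyl hydroxylation, had 106 ± 24.4 CPM in ELA and 131 ± 5.28 CPM in control (edgeR adjusted p = 0.847).

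Of 8 genes of procollagen processing, none passed the adjusted p and 4 had a negative value. Pcolce2, an enhancer of the C-proteinase, was the single one with groups that did not overlap, at 10.5, 10.7, 16.2, 10.03 and 16.4 CPM in ELA, against 7.29, 9.84, 8.07 and 9.32 CPM in control (log2 fold change 0.57 ± 0.20, edgeR adjusted p = 0.613). Adamts2, an N-proteinase, had 95.2 ± 23.6 CPM in ELA and 124 ± 18.5 CPM in control (edgeR adjusted p = 0.795), and Adamts14, another, had 10.1 ± 7.24 CPM in ELA and 16.2 ± 7.58 CPM in control (edgeR adjusted p = 0.942). The 7 genes of procollagen secretion had a median of -0.09, with 0 past the adjusted p and 0 at an unadjusted p below 0.05 by edgeR. Those with the smallest p were Tango2 (14.2 ± 2.39 CPM in ELA, 11.6 ± 1.75 CPM in control), Sec23a (67.9 ± 5.54 CPM in ELA, 78.4 ± 10.5 CPM in control) and Sec24d (64.8 ± 11.3 CPM in ELA, 76.1 ± 14.2 CPM in control).

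The elastic fibre, the other substrate of lysyl oxidases, was represented by 16 genes, of which 14 had a negative log2 fold change, and none passed the adjusted p in edgeR. At an unadjusted p below 0.05, ELA was lower for 3 of them and higher for 1. That 1 was Ltbp2, a fibrillin-binding protein of microfibrils, with 24.5, 23.4, 23.6, 26.2 and 22.7 CPM in ELA, against 16.0, 10.1, 11.8 and 14.0 CPM in control. No ELA mouse overlapped the controls (log2 fold change 0.89 ± 0.15, adjusted p = 0.0732 by edgeR and 0.000268 by DESeq2). Fbln5, which brings elastin and Loxl1 together, had 29.8 ± 5.10 CPM in ELA and 39.3 ± 5.22 CPM in control (edgeR adjusted p = 0.659), and Fbn1, the main microfibril protein, had 106 ± 14.7 CPM in ELA and 134 ± 16.4 CPM in control (edgeR adjusted p = 0.691).

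Lysyl oxidases receive copper in the secretory pathway, through Atp7a in most tissues, and 8 genes of copper delivery were listed. Atp7b, the related copper pump best known from liver, had 12.7, 4.88, 13.2, 16.6 and 11.4 CPM in ELA, against 2.91, 2.41, 3.56 and 2.98 CPM in control. The groups did not overlap, although t-205-1-3 was close to the controls, and the log2 fold change of 1.99 ± 0.31 did not pass the adjusted p in edgeR (0.0571) and passed it in DESeq2 (3.62e-07). Atp7a had 38.2 ± 13.5 CPM in ELA and 32.2 ± 5.37 CPM in control (edgeR adjusted p = 0.99). The other 6 copper genes, Slc31a2 with 24.1 ± 2.91 CPM in ELA and 25.6 ± 1.70 CPM in control among them, had unadjusted p above 0.05.

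Of the 7 tested genes that supply the hydroxylases with ascorbate and oxoglutarate, 0 passed the adjusted p or an unadjusted p of 0.05 in edgeR, and the median was 0.04, Idh3a having 216 ± 25.6 CPM in ELA and 184 ± 24.5 CPM in control and Ogdh having 376 ± 78.1 CPM in ELA and 309 ± 45.9 CPM in control (edgeR adjusted p = 0.885 and 0.886). A list of 5 genes was taken around the HIF prolyl hydroxylases Egln1, Egln2 and Egln3, relatives that act on hypoxia-inducible factors, not on collagen. The median of that list was 0.07, and Egln3, itself hypoxia-responsive, had 5.33 ± 1.29 CPM in ELA and 3.80 ± 2.21 CPM in control (edgeR adjusted p = 0.935). Beside the letters shown for P4ha1 and P4ha2, the 19 hypoxia response genes had a median of 0.07, with 13 positive and 6 negative values and 0 past the adjusted p. The single one at an unadjusted p below 0.05 was lower in ELA: Pfkfb3, a regulator of glycolysis, had 14.8 ± 3.49 CPM in ELA and 21.8 ± 2.38 CPM in control (log2 fold change -0.56 ± 0.19, edgeR adjusted p = 0.569). Vegfa had 150.4 ± 11.9 CPM in ELA and 126 ± 36.0 CPM in control (edgeR adjusted p = 0.929).

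The TGF-beta response genes, a group that in many tissues includes inducers and inhibitors around matrix synthesis, had a median of -0.15 over 9 genes, with none past the adjusted p in edgeR and with 3 higher and 1 lower in ELA by the unadjusted p. Besides Ltbp2, the higher ones were Smad7, an inhibitor of the pathway (51.4 ± 12.8 CPM in ELA, 33.0 ± 10.7 CPM in control, edgeR adjusted p = 0.595), and Skil, another inhibitor (257 ± 61.1 CPM in ELA, 181 ± 32.1 CPM in control, edgeR adjusted p = 0.682). The 5 tested basement membrane collagens, a substrate of Loxl2, had a median of -0.01 with 0 at an unadjusted p below 0.05.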

How the data were processed

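The authors deposited whole-number counts per gene for 9 libraries, 1 per mouse, with a gene length in bases as another column. The submitters' processing notes name CASAVA, HISAT and HISAT2. For the counter, the strand handling and the build, nothing was given in the sources used here. Of the 54532 genes, 54409 were in GENCODE M21, 98.33% with the same coordinates, so coordinates are on GRCm38. ELA was compared with control on the deposited counts with edgeR 4.0.16 in R 4.3.3 (filterByExpr with a count minimum of 10, TMM, robust glmQLFit, glmQLFTest, Benjamini-Hochberg over all genes, threshold 0.05), which was tested on simulated data. DESeq2 1.42.0 and limma-voom 3.58.1, other scalings, no filter, leaving out mice or title numbers and sums by title number were alternatives. CPM used TMM library sizes, FPKM the deposited lengths, and log2 CPM a prior count of 2. Replicates were separate mice, with independence within a title number, a possible litter, unknown. The enzymes and gene lists were chosen with earlier results of these data known. Of each list, genes past the adjusted p and the 3 with the smallest p could be named, and for each enzyme the 2 genes of highest correlation. Other genes are named as members of small sets.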

Additional observations from a re-analysis of the deposited data

Results flagged for a closer look

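With 20 sets of values examined (10 enzymes in each group), 3 had 1 mouse far from the rest of its group, where chance gives about 1 in 20. All 3 were in the control group, and 2 of them were mouse c-202-1-1. The 20 sets are not independent, since the enzymes share the same mice, so the count cannot be read as an excess over that rate. Loxl2 was at 74.0 CPM in c-202-1-1, while the other controls lay at 86.4 to 88.6 CPM. P4ha1 was at 70.2 CPM in c-202-1-1, while the others lay at 81.0 to 83.1 CPM. Plod3 was at 63.1 CPM in c-202-1-2, while the others lay at 52.9 to 54.0 CPM.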

How the results depend on the processing

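No enzyme passed the adjusted p in any of the 20 alternatives, in which the lowest adjusted p was 0.241 (Loxl2, without the ELA mice titled t-205), and 9 of 10 kept the sign of their log2 fold change in all of them, although those of Loxl3, Loxl4, Plod2 and P4ha2 moved by over 1.5 times without single mice. Leaving out title numbers moved some of them further. Without the mice titled t-203, the edgeR log2 fold change was -0.13 for Loxl2 (unadjusted p = 0.44), -0.996 for Loxl3 and -0.59 for Plod2. Without those titled t-205 it was -0.50 for Loxl2, -0.074 for Loxl3 and -0.063 for Plod2. Plod3 changed sign, with values of -0.11 to 0.0441 when single mice were left out, 0.0083 without the mice titled t-205 and 0.0278 without those titled c-202. The count of 3 enzymes lower at an unadjusted p below 0.05 ranged from 0 to 7 without single mice, and was 5 without the mice titled t-203, 1 without t-205, 1 without c-202 and 0 without c-204. The 10 genes called over the whole table became 138 with DESeq2, 38 with no filter, 0 to 23 without single mice, 4, 59, 1 and 0 without the mice titled t-203, t-205, c-202 and c-204, and 3 with counts summed by title number, a comparison of 2 against 2. The cause of these shifts was not tested, and each omission also leaves fewer mice. Relative to all fibrillar collagens, Lox, Loxl1, Loxl3 and Loxl4 had differences of -0.21, -0.18, -0.14 and -0.15, all positive relative to the 3 collagens, and P4ha2 had 0.56. No paired analysis was possible because the groups share no title number and replicate numbers here only follow accession order.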
